A study of Mus musculus with 6 samples.

Results

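Myc encodes a transcription factor that drives growth and division of blood cell precursors, and in the mouse it lies at one end of a long stretch of chromosome 15 that holds few protein-coding genes. Chromatin accessibility along this stretch was described from 6 ATAC-seq peak lists as 102 accessible regions, out of 149724 in the whole genome. The regions are all those that overlap chr15:61700000-63800000 of the mouse build mm9, a window of 2.1 Mb that takes in Myc itself (near chr15:61817000-61822000), Pvt1 and the domain downstream of them. Peaks from all lists were merged into 1 region wherever they overlapped by at least 1 bp. The window is set by coordinates alone, though it was chosen with earlier results of these data known.

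ATAC-seq uses the transposase Tn5 to cut and tag DNA where nucleosomes leave it open, so a peak marks a place where many cuts fell. The libraries came from pro-B cell lines, cultured early B cell precursors from bone marrow of 129SV mice, in which RAG2 is deficient in every line and which were left untreated. CBE_1 and CBE_2 are lines of genotype IGCR1-/-, with mutated IGCR1 on the IgH alleles. IGCR1 is a stretch of the immunoglobulin heavy chain locus, bound by the insulator CTCF, that keeps VH segments apart from the D segments. The heavy chain locus lies on another chromosome than Myc. WT is the line with unmutated IgH alleles. Each of the 3 lines gave 2 libraries, each of 200000 cells amplified by 11 cycles of PCR. Whether a line is 1 clone is not given. The mutated genotype was set against a single WT line, and the genotype and the line cannot be told apart. No label says that the duplicates were separate cultures, so p-values measure only the spread between these libraries, which may be technical. Cell type markers were not checked, since mm9 positions of other genes were not used here.

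Many cell types transcribe Myc through distant enhancers, stretches of DNA that raise transcription of a gene from afar and that lie open in the cells that use them. Downstream of Myc, different blood cells use different ones. One, bound by Notch in developing T cells, lies between 1.2 and 1.3 Mb from the gene, and a cluster that serves blood stem and progenitor cells lies between 1.6 and 1.8 Mb. Pvt1 is a long non-coding RNA gene just downstream of Myc, known as a site of chromosome breaks and viral insertions in lymphoid tumours, and its own promoter and internal elements are known to act on Myc transcription. The borders of these intervals, and of Pvt1 at about 0.05 to 0.27 Mb, are approximate and come from general knowledge of the locus. In the RefSeq gene table of a later assembly, 24 genes stand between Myc and Cyrib, the first gene on the far side, and their order was used but not their positions. Only 4 of those 24 are protein-coding, and they are Gsdmc, Gsdmc2, Gsdmc3 and Gsdmc4, members of a family of membrane pore proteins.

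The lists held 72318 and 80242 peaks in CBE_1, 94665 and 97522 in CBE_2, and 112241 and 106056 in WT. CBE_1 replicate 1 stood apart with the shortest list, and a list of another length can gain or lose weak peaks by its threshold alone. The mapped reads behind each list are not known. In the Myc window they held 56 and 68 peaks in CBE_1, 76 and 72 in CBE_2, and 79 and 76 in WT. Those peaks covered 39.4 and 49.6 kb in CBE_1, 52.9 and 53.1 kb in CBE_2, and 63.4 and 63.0 kb in WT.

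Set against the length of its own list, the Myc window took a somewhat larger share of the peaks in every mutated library than in either WT library. Per 10000 peaks of the list, the window held 7.74 and 8.47 peaks in CBE_1, 8.03 and 7.38 in CBE_2, and 7.04 and 7.17 in WT. The 95% Wilson intervals, which cover counting error of peaks only, ran from 5.65 at the lowest to 10.7 at the highest and overlapped between all 6 libraries. The mean was 7.91 ± 0.461 in the mutated lines (SD, n = 4 libraries of 2 lines) and 7.1 ± 0.0902 in WT (SD, n = 2 libraries of 1 line), a difference of 0.805. A two-sided exact permutation test over libraries gave p = 0.133 (0.4 after Benjamini-Hochberg adjustment over 6 tests), where the smallest p the design allows is 0.0667. That test takes no account of libraries that share a line. CBE_1 alone averaged 1.01 more than WT and CBE_2 alone 0.603 more, each with an exact permutation p of 0.333, the smallest that 2 libraries against 2 can give. The difference changed sign in the better 50% of each list, where the mutated lines differed from WT by −0.411 per 10000 peaks (exact permutation p = 0.533) and CBE_1 by −0.953 (exact permutation p = 0.333). Without CBE_1 replicate 2 the difference of CBE_1 from WT was 0.641, and without CBE_2 replicate 1 that of CBE_2 was 0.281.

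The share of covered bases showed no such order, with CBE_2 below WT and CBE_1 overlapping it. Of every 10000 bases covered by peaks, the window held 7.49 and 8.33 in CBE_1, 7.66 and 7.57 in CBE_2, and 7.91 and 8.35 in WT. The mean of the mutated lines differed from that of WT by −0.371, with an exact permutation p of 0.333, and that of CBE_2 by −0.52, also with an exact permutation p of 0.333. For CBE_1 the difference was −0.221 (exact permutation p = 0.667), and 0.198 once CBE_1 replicate 1 was left out. Chromosome 15 as a whole gave 4.1 and 4.01% of the peaks in CBE_1, 3.63 and 3.58% in CBE_2, and 3.59 and 3.66% in WT, so CBE_1 held a larger share of its peaks on the whole chromosome.

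**Figure D1:**
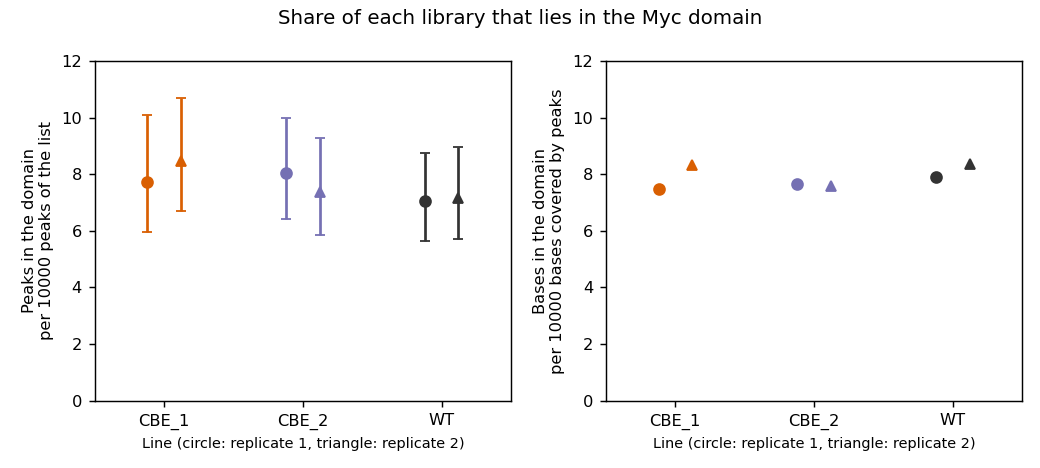
Share of each library that lies in the Myc window. The left panel shows peaks in the window per 10000 peaks of the list with 95% Wilson intervals, the right panel bases in the window per 10000 bases covered by peaks, with 1 point per library. On the left the 4 mutated libraries (7.38 to 8.47) sit above the WT libraries (7.04 and 7.17) with overlapping intervals, and on the right CBE_2 (7.66 and 7.57) sits below WT (7.91 and 8.35) while CBE_1 overlaps WT.

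Most of the window is closed, and what is open stands in a few groups. Accessible regions came at 48.6 per Mb of the window, against 56.7 per Mb of the genome, and regions found in all 6 libraries came at 18.1 per Mb in both. Upstream of Myc, no library held a single peak between chr15:61372913 and chr15:61814599, a stretch of 442 kb that begins outside the window. Only 0.344% of the gaps between neighbouring accessible regions in the genome are as long. Gaps of 123 kb and 116 kb followed downstream, at chr15:63603499-63726895 and chr15:62838252-62954212. The 22 bins of 100 kb were counted from the start of Myc, and each region was placed by its midpoint. The region over the Myc promoter, which reaches upstream of the start, thus counts in the first bin downstream. So placed, 3 bins held no region of any library, 15 held peaks in every library and 14 held a region found in all libraries. The outermost bin on each side lies only partly inside the window.

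**Figure D2:**
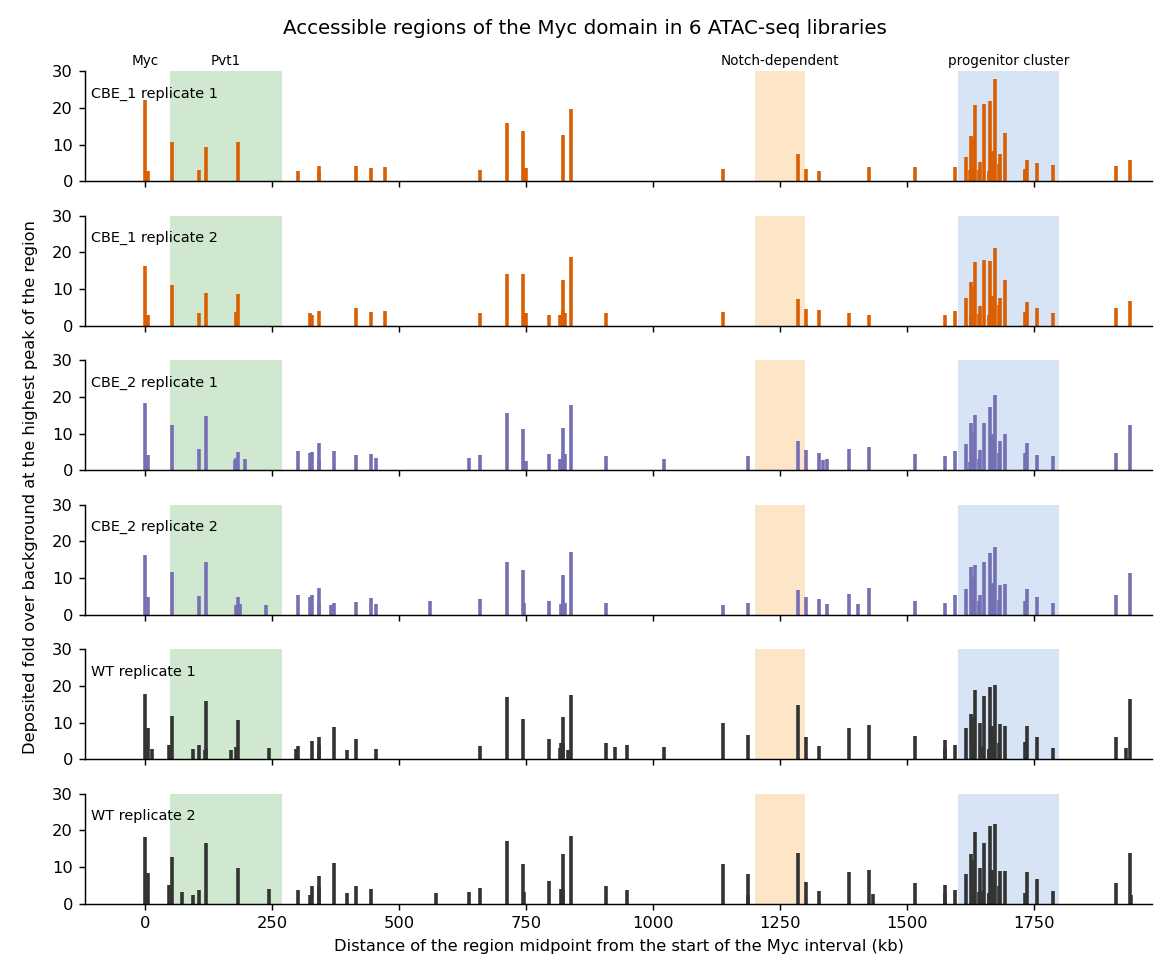
Accessible regions of the Myc window in each library. The x axis is the distance of a region's midpoint from the start of Myc in kb, the bar height is the deposited fold over background of the highest peak in the region, and shading marks the approximate intervals of Pvt1 (green), the Notch-dependent enhancer (orange) and the progenitor cluster (blue). In all 6 libraries the tall bars stand at Myc, in Pvt1, at 713.1 to 839.4 kb and in the cluster, and the bar at 1285.2 kb is shorter in the 4 mutated libraries.

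The densest stretch by far lay 1.6 to 1.7 Mb downstream of Myc, inside the interval of the progenitor enhancer cluster. This bin held 19 and 21 peaks in CBE_1, 20 and 18 in CBE_2, and 19 and 21 in WT, the highest count of any bin in each library. With lists cut to the same length it held 19 and 20 peaks in CBE_1, 16 and 17 in CBE_2, and 16 and 14 in WT, and was still the densest bin in each. It held 14 regions found in all 6 libraries, packed into 78.3 kb at chr15:63432886-63511198. Only 199 of 26393 bins of this size in the genome (0.754%) hold as many shared regions, where the mean bin holds 1.81 and 54.4% of bins hold none. The 1.6 to 1.8 Mb interval as a whole held 28 of the 102 regions, and 18 of these were found in all libraries. It took 47.4 and 43.9% of the window's covered bases in CBE_1, 37.6 and 38.8% in CBE_2, and 36.7 and 36.9% in WT. Both CBE_1 libraries were thus above the other 4, whose values lay close together. The covered length in that interval was 18686 and 21801 bp in CBE_1, 19883 and 20583 bp in CBE_2, and 23260 and 23232 bp in WT.

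**Figure D3:**
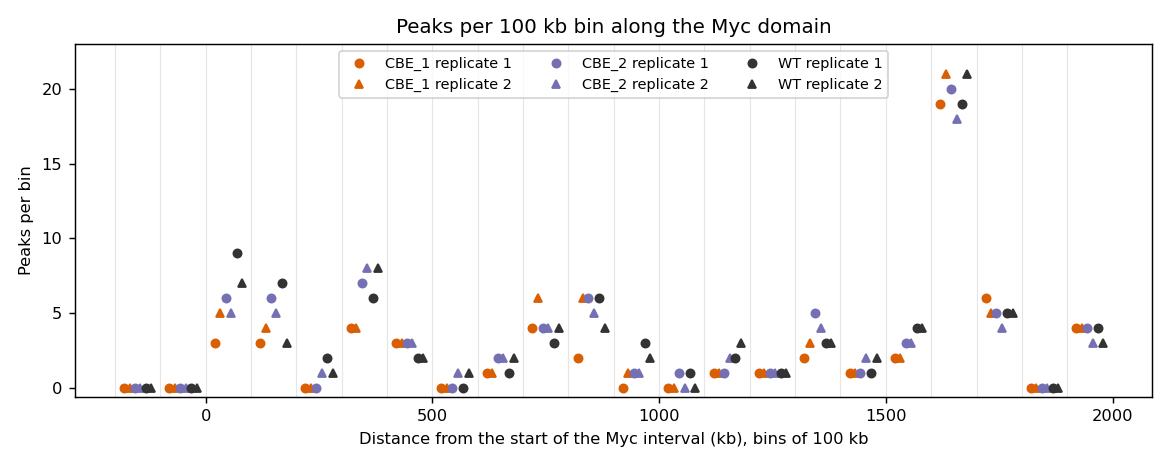
Peaks per 100 kb bin along the Myc window, with 1 point per library and the distance from the start of Myc in kb on the x axis. Peaks were counted in the bin that holds the midpoint of their region. The bin at 1600 to 1700 kb holds 18 to 21 peaks in every library, and no other bin reaches 10.

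Presence was counted first, each pattern beside its share in the genome. A region found in all 6 libraries is called shared, and 38 of 102 regions were shared (37.3%), against 31.9% in the genome and 37.4% on the rest of chromosome 15. The regions found in both WT libraries and in no mutated library numbered 7 (6.86%), against 8.68% in the genome. The reverse, present in all 4 mutated libraries and absent from WT, had 0 members against 1.52% in the genome. CBE_1 alone had 1 region (0.667% in the genome) and CBE_2 alone 1 (3.14%). Regions absent only from CBE_1 numbered 2 (5.05% in the genome), and those absent only from CBE_2 numbered 0 (0.653%). These counts are small and move with single libraries. Leaving out a library takes 1 condition from every pattern, so the counts tend to rise by construction. Genome shares of the counts without a library are not given here. Without WT replicate 1 the WT-only count was 12 and without WT replicate 2 it was 17. Without CBE_1 replicate 1 the CBE_1-absent count was 5, and without CBE_1 replicate 2 it was 11. Without CBE_2 replicate 1 the CBE_2-only count was 6 and without CBE_2 replicate 2 it was 5, while without CBE_1 replicate 2 or without WT replicate 1 it was 2. Without CBE_1 replicate 1 the CBE_1-only count was 4, and without CBE_1 replicate 2 or without CBE_2 replicate 1 it was 2. The counts of 0 reached 2 at most, for CBE_2-absent without CBE_1 replicate 2 and for mutated-only without WT replicate 2, and 1 without CBE_1 replicate 1 or without CBE_2 replicate 2 for both.

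Regions of a single library made up 26 of the 102 (25.5%, against 27.9% in the genome), and none of them had a fold over background above 3.76. They numbered 1 and 2 in CBE_1, 4 and 5 in CBE_2, and 9 and 5 in WT. A further 13 regions were found in exactly 5 libraries. Of these, 7 were missing only from CBE_1 replicate 1, 3 only from CBE_1 replicate 2, 1 only from CBE_2 replicate 1 and 2 only from WT replicate 1.

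Among the shared regions, the strongest peak of a region was ranked by its deposited fold against all 47767 shared regions of the genome in the same library, where 100 is the highest percentile. Every library thus ranks the same regions, and list length enters through which regions are shared. With lists cut to the same length, 43210 regions of the genome and 35 of the window were shared. In the Myc window the median percentile was 47.9 and 52.7 in CBE_1, 48.3 and 46.6 in CBE_2, and 54.0 and 53.6 in WT. A region is called lower or higher in a line where both its libraries lie outside both WT libraries. In CBE_1, 12 of 38 regions were lower than WT (33.6% in the genome) and 10 were higher (36.9%). In CBE_2, 18 of 38 were lower (47.4%, against 33.2% in the genome and 36.8% on the rest of chromosome 15) and 9 higher (23.7%, against 33.2% and 27.5%). All 4 mutated libraries lay below both WT libraries in 11 regions (28.9%, against 20.1% in the genome) and above both in 4 (10.5%, against 20.3%). The median difference between the mutated lines and WT was −0.78 percentile points over the 38 regions, 0.52 over the shared regions of the rest of chromosome 15 and 0.2 over all shared regions. For CBE_2 alone the median difference was −2.4 points, against −1.0 over the rest of chromosome 15 and 0.06 over all shared regions. These shares rest on 38 regions in 2 libraries a line, and their difference from the background was not tested.

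Counts of higher and of lower regions both moved with single libraries. Without CBE_1 replicate 1, CBE_1 was higher than WT in 21 of 46 shared regions (45.7%, against 45.5% in the genome). Without CBE_1 replicate 2 it was lower in 21 of 41 (51.2%, against 42.7%). Without CBE_2 replicate 2, CBE_2 was higher in 14 of 38 (36.8%, against 42.4%). Without CBE_1 replicate 1, CBE_2 was lower in 24 of 46 (52.2%, against 32.7%). The mutated lines were higher in 7 regions without CBE_1 replicate 1 (15.2%, against 23.6%). They were also higher in 7 without WT replicate 1 (17.1%, against 26.7%) or without WT replicate 2 (18.4%, against 26.6%). Without CBE_1 replicate 1 they were lower in 15 (32.6%, against 22.8%). A comparison with 1 library in a line finds fewer overlaps by construction, and the background shares were then larger too. That does not apply to CBE_2 against WT without CBE_1 replicate 1, where both lines kept 2 libraries. The genome share of lower regions there was 32.7%, against 33.2% with all libraries, and the window held 46 shared regions in place of 38.

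**Figure D4:**
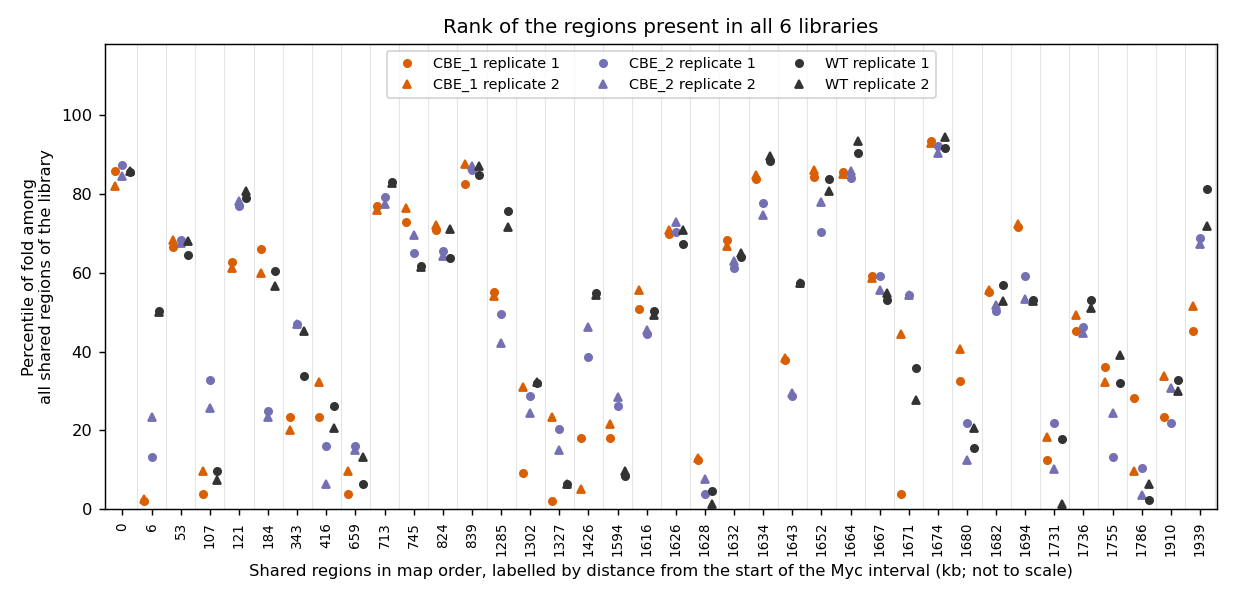
Percentile of fold of the 38 regions of the Myc window found in all 6 libraries, in map order and labelled by distance from the start of Myc in kb, with 1 point per library. At 6 and 1285 kb the mutated libraries lie below WT, at 184 kb the CBE_2 libraries lie below the other 4, at 0 and 53 kb all 3 lines overlap, and at 1674 kb each mutated line overlaps WT.

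The region over the Myc promoter was open in every library and overlapped in rank between all lines. It spans 5395 bp at chr15:61814600-61819994, from upstream of the gene into its body, and its median summit lay 0.2 kb upstream of the start of Myc. Its fold over background was 22.2 and 16.4 in CBE_1, 18.4 and 16.3 in CBE_2, and 17.9 and 18.1 in WT. In the full list of its own library it stood at the percentile 90.6 and 89.2 in CBE_1, 93.5 and 92.3 in CBE_2, and 93.8 and 93.5 in WT. Both CBE_1 libraries stood below the other lines there, in lists that differ in length. The percentile among shared regions was 85.9 and 82.0 in CBE_1, 87.2 and 84.5 in CBE_2, and 85.5 and 85.8 in WT. In that rank each mutated line overlapped WT. In width the region stood among the widest of the genome, at the 99.5th to 99.7th percentile of shared regions in every library. Peaks covered 5301 and 5309 bp of it in CBE_1, 5372 and 5316 bp in CBE_2, and 5385 and 5359 bp in WT. CBE_1 was thus slightly narrower than both other lines. A second, weak region inside the gene at chr15:61820581-61821517 had no peak in CBE_1 replicate 1, a fold of 2.81 in CBE_1 replicate 2, 2.57 and 2.68 in CBE_2, and 3.9 and 3.19 in WT. Which exon or intron these regions overlap was not assigned, since no mm9 annotation was used here.

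The nearest region downstream of the gene, by contrast, ranked lower in both mutated lines than in WT. At chr15:61822119-61824068, 6.1 kb from the start of Myc, its fold was 2.87 and 2.81 in CBE_1, 4.05 and 4.83 in CBE_2, and 8.44 and 8.35 in WT. Its percentile was 2.0 and 2.5 in CBE_1, 13.2 and 23.3 in CBE_2, and 50.3 and 49.9 in WT. The 3 lines did not overlap, with CBE_1 lowest and WT highest, and the mean of the mutated lines differed from WT by −39.8 points. A difference this low was reached by 448 of the 47767 shared regions of the genome, or 0.938%. The peak was narrower too, with 401 and 630 bp covered in CBE_1, 1287 and 1749 bp in CBE_2, and 1919 and 1950 bp in WT. Further towards Pvt1, 46.8 kb from Myc, a region at chr15:61863435-61864116 was found in WT alone, with a fold of 4.0 and 5.16 there.

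Pvt1 held 16 regions, of which 4 were shared, and the one near its approximate start overlapped in rank between all lines. At chr15:61868789-61871419 the percentile was 66.5 and 68.4 in CBE_1, 68.3 and 67.6 in CBE_2, and 64.6 and 68.1 in WT, and both mutated lines overlapped WT. The regions further inside the gene differed, each in its own way. At chr15:61937841-61938573, 121.2 kb from Myc, the percentile was 62.7 and 61.1 in CBE_1, 76.8 and 78.2 in CBE_2, and 78.9 and 80.7 in WT. The difference from WT was −17.8 points in CBE_1 and −2.3 in CBE_2, both without overlap. At chr15:62000474-62001670, 184.1 kb from Myc, CBE_2 was the line that stood low, with a percentile of 24.8 and 23.3 in CBE_2, against 66.1 and 59.9 in CBE_1, and 60.4 and 56.5 in WT. The difference of CBE_2 from WT was −34.4 points, a distance reached by 833 shared regions of the genome (1.74%), and CBE_1 overlapped WT. At chr15:61923358-61924257, 106.8 kb from Myc, CBE_2 was instead the higher line, with 32.7 and 25.8 in CBE_2, against 3.9 and 9.7 in CBE_1, and 9.7 and 7.5 in WT. A weak region at chr15:62061074-62061834, 244.5 kb from Myc, was found in WT alone, with a fold of 3.03 and 3.96.

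The long stretch from the end of Pvt1 to 1.2 Mb held 36 regions, only 7 of them shared, and its highest overlapped in rank between all lines. It stood at chr15:62655244-62657505, 839.4 kb from Myc, with a percentile of 82.4 and 87.5 in CBE_1, 86.0 and 87.1 in CBE_2, and 84.8 and 87.1 in WT. That region was narrower in the mutated lines, with 1456 and 1605 bp covered in CBE_1, 1585 and 1638 bp in CBE_2, and 2260 and 2161 bp in WT. At chr15:62529177-62531071, 713.1 kb from Myc, the mutated lines ranked slightly lower, with 76.8 and 76.0 in CBE_1, 79.2 and 77.5 in CBE_2, and 83.1 and 82.7 in WT. Its neighbour at chr15:62561736-62562547, 745.1 kb from Myc, ranked higher in the mutated lines, with 72.9 and 76.3 in CBE_1, 64.9 and 69.6 in CBE_2, and 61.7 and 61.4 in WT. The differences at these neighbours were thus small and opposite.

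Both regions of the window that were absent only from CBE_1 fell in this stretch, as did the CBE_1-only region and 2 of the 7 WT-only regions. At chr15:62189857-62190406, 373.1 kb from Myc, the fold was 5.15 and 3.33 in CBE_2, and 8.87 and 11.1 in WT. At chr15:63003266-63003982, 1186.6 kb from Myc, it was 3.8 and 3.33 in CBE_2, and 6.6 and 8.13 in WT, so that CBE_2 was again below WT without overlap. The single CBE_1-only region, at chr15:62288582-62288944, had a fold of 3.77 and 4.07 in CBE_1. A WT-only region at chr15:62766118-62766615, 949.4 kb from Myc, had a fold of 3.79 and 3.74 in WT. The remaining WT-only regions that were named stood at chr15:63391436-63391872 and chr15:63466880-63467417, with WT folds of 2.86 to 3.46, and the single CBE_2-only region at chr15:63159608-63159913 had 2.94 and 3.01 in CBE_2.

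The interval of the Notch-dependent T cell enhancer held 1 region, which was open in all 6 libraries of these B lineage cells and ranked lower in both mutated lines. At chr15:63101724-63102670, 1285.2 kb from Myc, its fold was 7.39 and 7.3 in CBE_1, 7.85 and 6.66 in CBE_2, and 14.8 and 13.7 in WT. Its percentile was 55.1 and 54.0 in CBE_1, 49.5 and 42.1 in CBE_2, and 75.6 and 71.5 in WT. The difference from WT was −19.0 points in CBE_1 and −27.7 in CBE_2, and neither line overlapped WT. In the genome 2073 shared regions (4.34%) ranked at least as far below WT in the mutated lines together. Peaks covered 465 and 494 bp of it in CBE_1, 495 and 574 bp in CBE_2, and 933 and 935 bp in WT. Whether this region is the enhancer itself was not tested.

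From 1.3 to 1.6 Mb there were 12 regions, 4 of them shared and all weak to middling. The region at chr15:63242541-63243689, 1426.1 kb from Myc, had a percentile of 18.1 and 5.1 in CBE_1, 38.5 and 46.3 in CBE_2, and 54.8 and 54.4 in WT. The lines did not overlap and stood in the same order as at 6.1 kb, with CBE_1 lowest. The difference from WT was −43.0 points in CBE_1, a distance reached by 608 shared regions of the genome (1.27%), and −12.2 in CBE_2. In the opposite direction, the region at chr15:63410422-63410930, 1593.7 kb from Myc, ranked higher in the mutated lines, with 18.1 and 21.7 in CBE_1, 26.2 and 28.4 in CBE_2, and 8.5 and 9.8 in WT. At chr15:63143987-63144597, 1327.3 kb from Myc, CBE_2 was higher with 20.4 and 15.1, against 6.4 and 6.5 in WT. There the CBE_1 libraries stood on either side of WT, at 2.0 and 23.3.

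In the progenitor enhancer cluster, the strongest regions ranked with the Myc promoter. Of the 38 shared regions, 6 had a median percentile of 80 or more over the 6 libraries, a smaller share than the 19.5% of shared regions in the genome. Of those 6, 4 lay among the 18 shared regions here, a share close to that of the genome. The top one, at chr15:63488755-63492902, 1673.8 kb from Myc, had a fold of 27.8 and 21.2 in CBE_1, 20.5 and 18.4 in CBE_2, and 20.1 and 21.6 in WT. Its percentile was 93.3 and 92.8 in CBE_1, 92.1 and 90.4 in CBE_2, and 91.7 and 94.3 in WT, and both mutated lines overlapped WT. It exceeded the Myc promoter in percentile in every library. The next one at chr15:63478489-63482490, 1663.5 kb from Myc, had 85.5 and 85.0 in CBE_1, 83.9 and 85.8 in CBE_2, and 90.4 and 93.3 in WT, so that both mutated lines lay below WT, with differences of −6.6 points in CBE_1 and −7.0 in CBE_2. It was also narrower, with 2550 and 3349 bp covered in CBE_1, 2942 and 2984 bp in CBE_2, and 3977 and 3656 bp in WT.

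Other members of the cluster differed between lines in different directions. At chr15:63459875-63460851, 1643.4 kb from Myc, both mutated lines were well below WT, with 37.9 and 38.4 in CBE_1, 28.8 and 29.5 in CBE_2, and 57.3 and 57.4 in WT. At chr15:63510009-63511198, 1693.6 kb from Myc, both mutated lines ranked above WT, with 71.7 and 72.4 in CBE_1, 59.2 and 53.2 in CBE_2, and 53.1 and 52.8 in WT. At chr15:63497057-63497448, 1680.3 kb from Myc, CBE_1 ranked above WT, with 32.4 and 40.6 in CBE_1, 21.8 and 12.5 in CBE_2, and 15.5 and 20.7 in WT. The region at chr15:63487617-63488480, 1671.0 kb from Myc, was another at which CBE_2 ranked above WT, with 54.3 and 54.4 in CBE_2, against 35.9 and 27.7 in WT. Its CBE_1 libraries were far apart there, at 3.9 and 44.4. On the outer side of the cluster, 1755.4 kb from Myc at chr15:63572084-63572662, CBE_2 was low, with 36.2 and 32.3 in CBE_1, 13.2 and 24.5 in CBE_2, and 31.9 and 39.0 in WT. At the last region of the interval, chr15:63603076-63603498, all lines ranked low, with 28.2 and 9.7 in CBE_1, 10.4 and 3.5 in CBE_2, and 2.3 and 6.5 in WT.

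**Figure D5:**
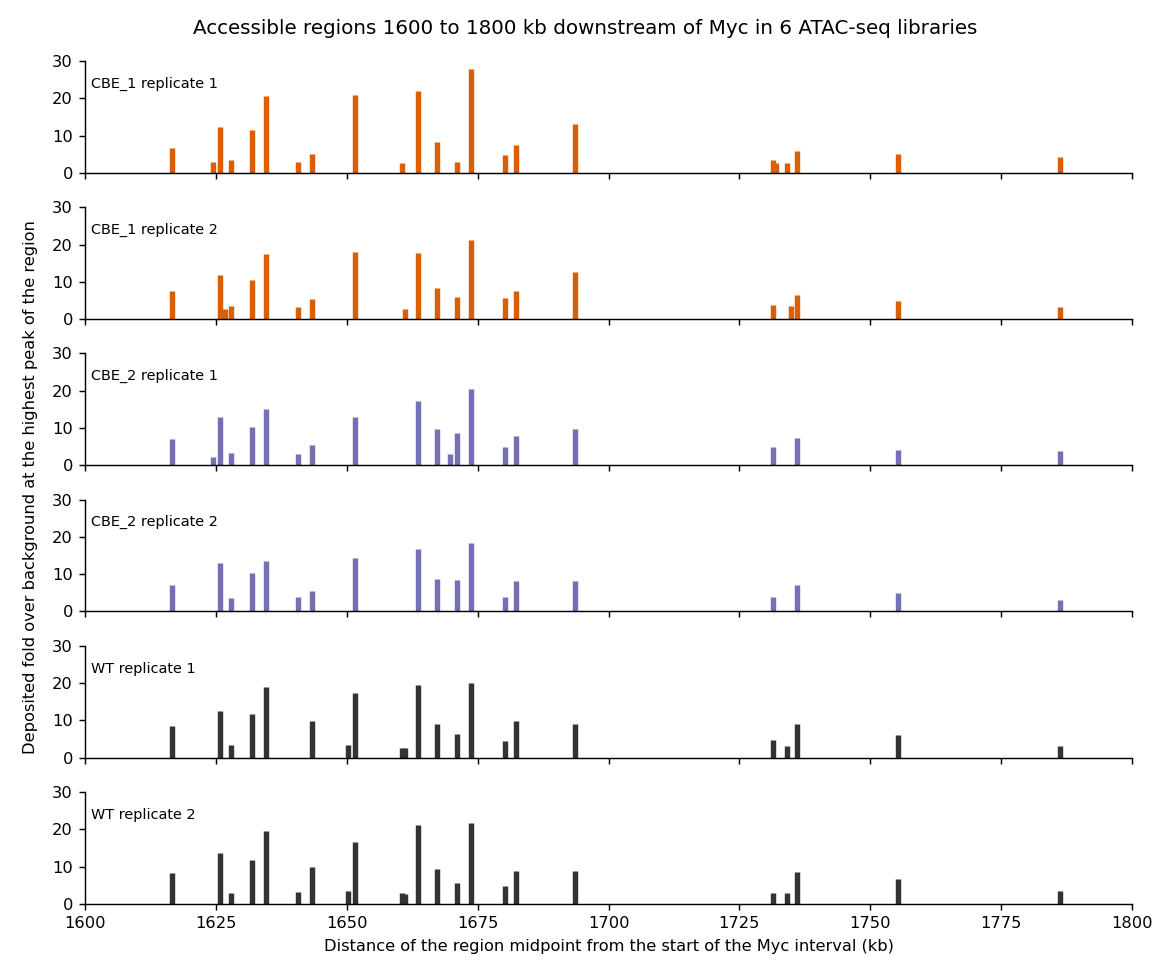
Accessible regions 1600 to 1800 kb downstream of Myc, with 1 panel per library. The x axis is the distance from the start of Myc in kb and the bar height is the deposited fold over background of the highest peak in the region. The tallest bar of every library stands at 1673.8 kb, and the group from 1615.9 to 1694.2 kb is dense in all 6.

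The counts of rank differences were also split between the cluster and the rest of the window. Of the cluster's 18 shared regions, 8 ranked higher in CBE_1 than in WT (44.4%, against 36.9% in the genome) and 4 lower (22.2%, against 33.6%). Of the 20 shared regions in the rest of the window, 2 ranked higher in CBE_1 (10.0%) and 8 lower (40.0%). In CBE_2, 3 of the cluster's regions ranked higher than WT (16.7%, against 33.2% in the genome) and 9 lower (50.0%, against 33.2%). In the rest of the window, 6 ranked higher in CBE_2 (30.0%) and 9 lower (45.0%). Between the mutated lines, CBE_1 ranked above CBE_2 in 11 of the 18 cluster regions and below it in 1, and above in 5 and below in 9 of the other 20. Over all 38, that is 16 above (34.1% in the genome) and 10 below (31.5%). Without CBE_1 replicate 1, CBE_1 was above CBE_2 in 27 of 46 shared regions (58.7%, against 43.6% in the genome). Without CBE_1 replicate 2, CBE_1 was below in 16 of 41 (39.0%, against 41.6%). The median percentile of the cluster regions was 52.9 and 55.7 in CBE_1, 52.3 and 52.5 in CBE_2, and 53.1 and 52.8 in WT, close together in all lines. In the rest of the window it was 34.2 and 42.6 in CBE_1, 42.8 and 44.2 in CBE_2, and 57.6 and 55.5 in WT, with every mutated library below WT. The difference between cluster and rest was not tested.

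Beyond 1.8 Mb, towards the Gsdmc genes, the window held 4 regions and 2 were shared. The stronger, at chr15:63754477-63757281, 1938.9 kb from Myc, had a percentile of 45.1 and 51.5 in CBE_1, 68.7 and 67.3 in CBE_2, and 81.3 and 71.9 in WT. The order of the lines was that seen at 6.1 and 1426.1 kb, and none overlapped. The difference from WT was −28.3 points in CBE_1 and −8.6 in CBE_2.

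Width followed the genome for the most part. In CBE_1, 20 of the 38 shared regions had fewer covered bases than in WT (52.6% in the genome) and 1 had more (11%). In CBE_2, 16 were narrower than in WT (36.8% in the genome) and 6 wider (22.3%). In both mutated lines together, 14 were narrower (28.8% in the genome) and 1 wider (7.36%), with a median difference of −92.12 bp, against −67.5 bp over all shared regions. CBE_1 was narrower than CBE_2 in 17 (44.8% in the genome) and wider in 5 (11.7%). Width moves with the length of a list, and the counts of wider regions were unstable. Without CBE_1 replicate 1, CBE_1 was wider than WT in 10 of 46 shared regions and wider than CBE_2 in 15 of 46. Without WT replicate 1 it was wider than WT in 6 of 41. It was wider than WT in 2 of 41 without CBE_1 replicate 2, and in 2 of 38 without WT replicate 2. Without CBE_1 replicate 2, CBE_1 was narrower than WT in 34 of 41 and narrower than CBE_2 in 32 of 41. CBE_2 was wider than WT in 13 of 41 without WT replicate 1. It was wider in 10 of 39 without CBE_2 replicate 1 and in 10 of 38 without CBE_2 replicate 2. The mutated lines were wider in 3 of 46 without CBE_1 replicate 1, in 5 of 41 without WT replicate 1 and in 2 of 38 without WT replicate 2. With 1 library in a line, fewer overlaps arise by construction, and genome shares of these width counts are not given here.

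The position of the strongest peak within a region was stable. In 19 of the 38 shared regions the summits of all 6 libraries fell within 100 bp of each other, and the median range was 101.5 bp, against 100 bp over all shared regions of the genome.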

How the data were processed

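The authors deposited 1 ATAC-seq peak list per library, on mm9. The submitters' processing notes name Trimmomatic, Bowtie2, SAMtools and Picard, with no versions. How peaks were called, and whether reads were shifted for Tn5, is not given in the sources used here. Each deposited list gives position, a score (the whole part of 10 times the −log10 q-value), a fold over background (a ratio) and −log10 of the p-value and the q-value per peak, all the authors' own values and compared as ranks inside each list. Read depth is unknown. Peaks were merged at 1 bp, and coverage, presence, and percentiles of fold were computed with Python 3.11.15, numpy 2.4.6, pandas 2.3.3 and scipy 1.17.1, after a check on simulated lists. Lists were compared by counts beside the same share over the genome, without tests per region. Shares per library had two-sided exact permutation tests over libraries. Replicates were numbered in accession order. Regions named were those at or within 5 kb of Myc, the top of each segment, the top of bins holding a region in the better 10%, up to 5 per direction or pattern for each line, and the 5 widest. The window, members and lists were chosen with earlier results of these data known. Sequences of the region were not used here.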

Additional observations from a re-analysis of the deposited data

Results flagged for a closer look

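At 4 of the 38 shared regions CBE_1 and CBE_2 departed from WT in opposite directions, with no overlap of libraries in percentile of fold among shared regions (10.5%, against 9.83% of shared regions in the genome). The difference was not tested at any of them, and both comparisons use the same WT libraries. The widest apart was chr15:62159712-62160855, 343.3 kb from Myc, with 23.4 and 20.1 in CBE_1, 47.1 and 47.0 in CBE_2, and 33.9 and 45.2 in WT. CBE_1 lay −17.9 points from WT there, and CBE_2 7.5 points.

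The other 3 stand in the progenitor cluster, and at each CBE_1 was above WT and CBE_2 below it. At chr15:63432886-63434045 the differences from WT were 3.4 points in CBE_1 and −4.8 in CBE_2. At chr15:63448127-63449431 they were 2.9 points in CBE_1 and −2.5 in CBE_2. At chr15:63467738-63469203 they were 2.8 points in CBE_1 and −8.1 in CBE_2. The last of these is among the stronger regions of the cluster, with a percentile of 84.2 and 86.0 in CBE_1, 70.4 and 77.8 in CBE_2, and 83.8 and 80.7 in WT.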

How the results depend on the processing

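No paired analysis was possible because the replicate numbers were given in accession order and pair no libraries. Named shared regions whose libraries did not overlap WT kept the sign of their difference under both cuts of the lists, where they were still shared. The cuts were lists of the same length and the better 50% of each list, and chr15:63603076-63603498 was shared in neither. In the better 50% the regions at 6.1, 106.8, 343.3, 1327.3, 1426.1, 1593.7, 1671.0, 1680.3 and 1755.4 kb were not shared either. Their differences were thus not checked there, among them the 2 lowest of CBE_1 from WT (−47.8 points at 6.1 kb and −43.0 at 1426.1 kb). The overlapping difference of CBE_1 at chr15:61923358-61924257, −1.8 points in all lists, was 1.4 under lists of the same length. The peak share reversed in the better 50% of each list (CBE_1 −0.953, mutated lines −0.411 per 10000 peaks), and the covered share of CBE_1 reversed to 0.198 without CBE_1 replicate 1. With lists cut to the same length, the window held 2 CBE_1-only, 0 CBE_2-only, 3 WT-only and 1 CBE_2-absent region. With the better 50% of each list, it held 22 shared, 0 CBE_1-only, 4 CBE_2-only and 4 CBE_1-absent regions. In those 22 shared regions, CBE_1 was higher than WT in 5 (22.7%, against 37.9% in the genome) and lower in 8 (36.4%, against 35.7%). CBE_2 was higher in 1 (4.55%, against 33.1%) and lower in 13 (59.1%, against 33.1%). The mutated lines were higher in 1 (4.55%, against 20.1%) and lower in 8 (36.4%, against 20.1%). CBE_1 was higher than CBE_2 in 12 (54.5%, against 35.3%) and lower in 3 (13.6%, against 34.3%). In width, CBE_1 was narrower than WT in 13, and wider than CBE_2 in 3 and narrower in 7. Where peaks had to cover 50% of a region, 2 regions were CBE_1-only and 6 CBE_1-absent. Of the 27 shared regions then left, CBE_1 was lower than WT in 7 (25.9%, against 34.2% in the genome). It was higher in 7 (25.9%, against 35.2%). CBE_2 was higher in 4 (14.8%, against 31.7%) and lower in 13 (48.1%, against 31.5%). The mutated lines were higher in 2 (7.41%, against 18.3%) and lower in 6 (22.2%, against 18.5%). CBE_1 was lower than CBE_2 in 6 (22.2%, against 32.8%). In width, CBE_1 was narrower than WT in 12, CBE_2 in 10 and the mutated lines in 8. CBE_1 was narrower than CBE_2 in 10. Genome shares of the width counts under these settings are not given here. Merging peaks within 100 bp gave 1 CBE_2-absent region. The cause of these shifts was not tested, and neither was the part that the smaller number of shared regions has in them.

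Leaving out 1 library at a time gave ranges, and the shared regions of the window then numbered 38 to 46. Leaving out any library takes 1 condition from every presence pattern, so those counts tend to rise by construction. Where a line is left with 1 library, fewer overlaps in rank or width arise by construction. The genome shares of the rank counts were then larger too, so these ranges are counts without a background. In presence, CBE_1-absent ran from 2 to 11, CBE_1-only from 1 to 4, CBE_2-absent from 0 to 2, CBE_2-only from 1 to 6, WT-only from 7 to 17 and mutated-only from 0 to 2. In rank, CBE_1 was higher than WT in 10 to 21 regions and lower in 12 to 21, CBE_2 higher in 10 to 14, the mutated lines higher in 4 to 7, and CBE_1 higher than CBE_2 in 16 to 27 and lower in 10 to 16. In width, CBE_1 was wider than WT in 1 to 10 and narrower in 20 to 34, CBE_2 wider in 7 to 13, the mutated lines wider in 1 to 5, and CBE_1 wider than CBE_2 in 5 to 15 and narrower in 17 to 32. The covered share of CBE_1 ran from −0.641 to 0.198. The count of regions lower in CBE_2 than in WT, 18 in all libraries, ran from 19 to 24. The 24 were of 46 shared regions without CBE_1 replicate 1, where CBE_2 and WT both kept 2 libraries. Differences within single regions were not tested.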

Other observations

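Some regions found in 5 of the 6 libraries fell outside the rule for naming regions and are given here because of their values, seen first. At chr15:62954213-62955231, 1137.7 kb from Myc, the fold was 3.47 and 3.86 in CBE_1, 2.68 in CBE_2 replicate 2 with no peak in CBE_2 replicate 1, and 9.95 and 10.9 in WT. At chr15:63202705-63203617, 1386.2 kb from Myc, there was no peak in CBE_1 replicate 1 and the fold was 3.44 in CBE_1 replicate 2, 5.76 and 5.58 in CBE_2, and 8.66 and 8.79 in WT. At chr15:63331933-63332542, 1515.2 kb from Myc, the fold was 3.92 in CBE_1 replicate 1 with no peak in CBE_1 replicate 2, 4.41 and 3.65 in CBE_2, and 6.38 and 5.71 in WT. In the same stretch of the domain, the shared regions at 1285.2, 1302.0 and 1426.1 kb also ranked below WT in both mutated lines, and those at 1327.3 and 1593.7 kb ranked above WT in CBE_2.

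In the other direction, the region at chr15:62118287-62119212, 301.7 kb from Myc, likewise picked after its values were seen, had a fold of 2.71 in CBE_1 replicate 1 with no peak in CBE_1 replicate 2, 5.15 and 5.37 in CBE_2, and 3.68 and 3.85 in WT.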
